A study of Rattus norvegicus with 18 samples.

Results

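Genes of the marrow adipocyte were followed through fracture healing in the rat femur. The 10 genes were chosen by name, out of 4736 genes that the array names by a single symbol. They are Pparg, Lpl, Cd36, Fabp4, Scd, Plin1, Lipe, Slc2a4, Cfd and Lep, read by 18 of the 8740 probe sets tested. A gene with several probe sets is represented by the one with the highest mean log2 signal, and its dimmer probe sets are given beside it where they differ.

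The tissue came from female Sprague-Dawley rats that were 6 weeks (young), 26 weeks (adult) or 52 weeks (older) of age at surgery. The fractured groups had a closed mid-shaft fracture of the femur, stabilised by a rod in the marrow canal, and were sampled after 3 days and after 1, 2, 4 and 6 weeks. The no fracture groups were intact femora of the same 3 ages. The sampled segment was a stretch of the shaft around the fracture, with callus, cortical bone and marrow together. RNA of 2 rats was pooled for each of the 18 arrays, with 1 array for each age at each time, so the 3 ages serve as replicates of a time and the 6 times as replicates of an age. The no fracture rats served as sham controls at time 0, so rats of a later time had also aged by that time, and the effect of fracture, of the rod in the canal and of that ageing cannot be told apart.

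The marrow of long bones holds adipocytes among its blood-forming and bone-forming cells, and these fat cells share a lineage with osteoblasts. They take up fatty acids from the blood, store them as triglyceride in a droplet, release them again on hormonal demand, and secrete proteins such as adipsin and leptin. The nuclear receptor encoded by Pparg, together with factors of the C/EBP family, switches on most of the genes listed here. Several of them are not private to fat: skeletal muscle also uses Slc2a4, Lpl, Cd36 and Lipe, and macrophages also use Lpl, Cd36 and Fabp4. Where a signal falls in such mixed tissue, fewer cells of a type and less RNA per cell cannot be told apart.

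The promoters of 6 of the 10 genes (Cd36, Cfd, Lep, Plin1, Pparg and Scd) were available as 7 windows of 250 bases before the transcription start, taken from RefSeq on the rat assembly GRCr8. Each window was searched on both strands for TTNNGNAA, the core of the C/EBP consensus, and for AGGTCA, the single element that PPAR and RXR dimers bind as a pair. The C/EBP core occurred in 4 of the 7 windows and in 37.2% of 33469 rat promoter windows of that length. The AGGTCA element occurred in 0 of the 7 windows and in 14.1% of all windows. The direct repeat of this element with 1 base between the copies was in 0 of the 7 and in 0.0508% of all. A match is a run of letters and not a binding site. The 4 windows with a C/EBP core are shown because Cebpb and Cebpd, 2 genes of that family, rose after fracture by their brightest probe sets. None of the 4 genes with these windows was called higher against no fracture (values below), and a link to the core was not tested. Capitals mark the core, and the windows are at chr4:58626288-58626537 (plus strand, Lep), chr1:143086149-143086398 (minus strand, Plin1), chr4:150154522-150154771 (plus strand, the second of 2 Pparg windows) and chr4:18246332-18246581 (plus strand, Cd36). The core lies 69 to 62 bases before the start in Lep, where the match is on both strands, and 77 to 70 bases before it in Plin1, where, as in Pparg and Cd36, the match is on the strand opposite to the one printed. In Pparg it lies 174 to 167 bases and in Cd36 243 to 236 bases before the start.
Lep: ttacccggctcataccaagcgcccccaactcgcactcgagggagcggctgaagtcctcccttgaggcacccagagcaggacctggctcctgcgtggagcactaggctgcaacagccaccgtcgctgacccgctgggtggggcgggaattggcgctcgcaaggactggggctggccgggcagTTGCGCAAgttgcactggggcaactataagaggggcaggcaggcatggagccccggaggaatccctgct
Plin1: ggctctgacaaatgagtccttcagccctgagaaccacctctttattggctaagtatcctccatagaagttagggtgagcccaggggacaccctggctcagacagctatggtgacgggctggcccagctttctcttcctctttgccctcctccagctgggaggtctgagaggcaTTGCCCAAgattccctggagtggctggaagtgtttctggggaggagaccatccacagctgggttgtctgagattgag
Pparg: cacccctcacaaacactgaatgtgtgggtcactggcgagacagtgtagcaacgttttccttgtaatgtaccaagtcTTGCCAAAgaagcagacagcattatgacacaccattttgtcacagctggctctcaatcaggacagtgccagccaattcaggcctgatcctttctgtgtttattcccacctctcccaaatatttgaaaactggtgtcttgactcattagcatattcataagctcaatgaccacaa
Cd36: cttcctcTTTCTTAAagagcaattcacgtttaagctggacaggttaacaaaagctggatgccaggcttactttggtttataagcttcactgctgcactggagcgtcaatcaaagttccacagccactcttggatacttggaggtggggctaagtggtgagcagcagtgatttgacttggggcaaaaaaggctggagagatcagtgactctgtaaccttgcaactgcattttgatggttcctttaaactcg

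All values below are signal intensities on a scale that the authors set to a trimmed mean of 500 on each array, so a signal is relative to the rest of its array. A change is a log2 difference fitted in limma over all 18 arrays with age as a covariate, after signals below 20 were set to 20. A gene is called where its p, adjusted over all 8740 probe sets by the method of Benjamini and Hochberg, is below 0.05. Of the 10 genes only Plin1 had signals under 20, on 9 of 18 arrays. Across the arrays, 12.2% to 20.1% of probe sets were under 20 and the median signal was 131.9 to 164.1. The actin 3'/5' ratio, which grows as RNA breaks down, was 1.48 to 2.72 on the fractured arrays and 2.1 to 2.61 on the no fracture arrays, and among the fractured ones only the young and adult 6-week arrays were above the lowest no fracture value.

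Several of the adipocyte genes fell early after fracture, and 7 of the 10 rose between 3 days and 6 weeks. At 3 days 4 of the 10 were called lower than with no fracture: Slc2a4 6.51-fold, Cfd 3.39-fold, Lipe 2.66-fold and Fabp4 1.79-fold. None was called higher. Of all probe sets 20.4% were called lower at 3 days. The median change of the 10 genes was -0.83, against -0.08 over all probe sets. At 1 week and at 2 weeks the same 3 genes, Cfd, Lipe and Slc2a4, were called lower, against 17.8% and 16.8% of all probe sets. At 4 weeks Lep and Lipe were called lower (all probe sets 9.7%), and neither call remained when any 1 age was left out, and at 6 weeks 0 of the 10 were called in either direction, against 7.11% lower and 8.34% higher of all probe sets. By the F test over the 6 times, 6 of the 10 genes changed (Cfd, Fabp4, Lipe, Lpl, Scd and Slc2a4), against 36.3% of all probe sets. Brighter probe sets were called more often: among those with a mean signal of 200 or more the share was 59.9%. That filter leaves out Cd36, Plin1 and Pparg, and the same 6 genes were called. The actin ratio moved with fracture, and its part in these results was not tested beyond a fit with the ratio as a covariate, in which Fabp4, Lipe and Slc2a4 kept their call at 3 days and Lipe alone kept it at 1 and 2 weeks. In that fit the calls over all probe sets at 3 days were 13.5%, against 39.3% without the ratio, and Cfd gave -2.34 at 3 days (adjusted p = 0.0548) and -1.98 at 1 week (adjusted p = 0.0696), while Slc2a4 gave -1.23 at 1 week (adjusted p = 0.0792).

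**Figure D1:**
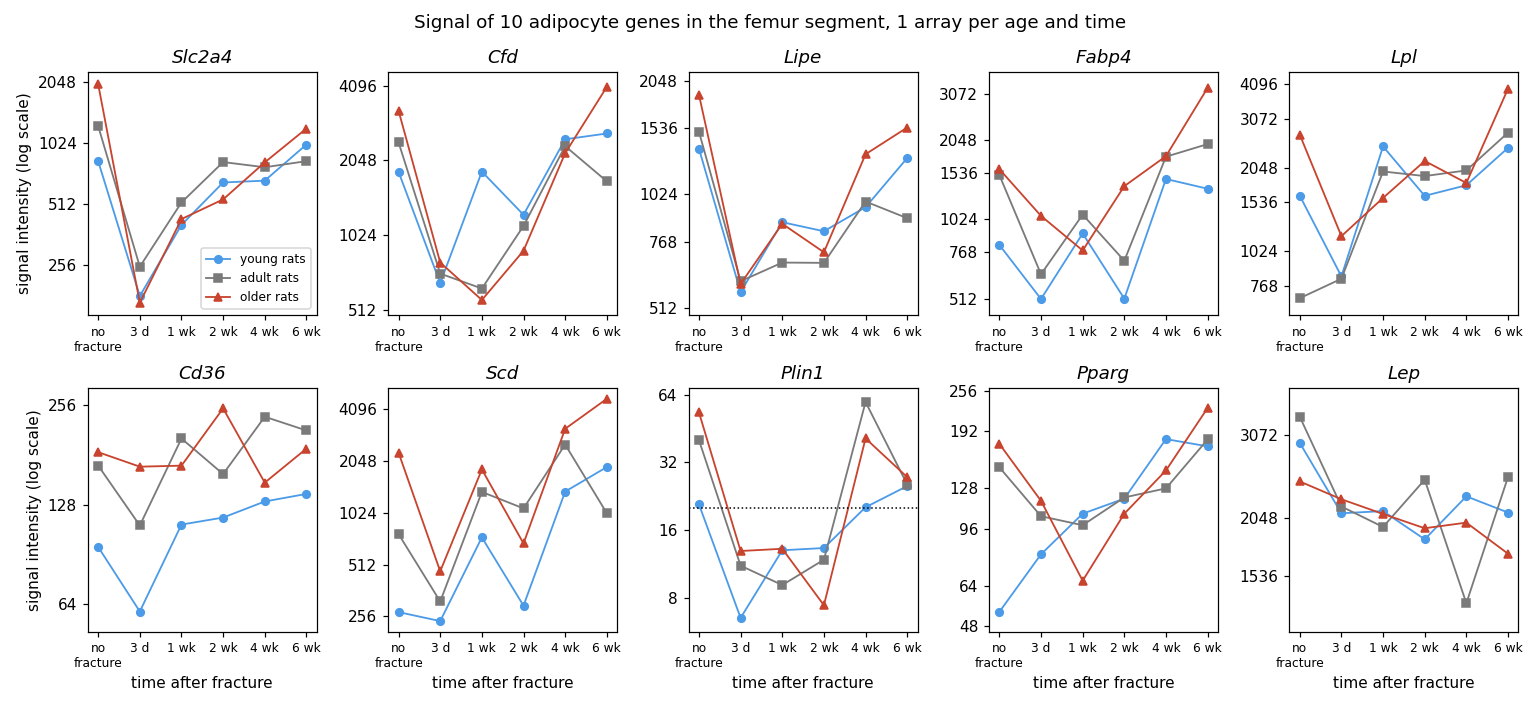
Signal intensity (log axis) of the 10 genes against time after fracture, with 1 point per array and 1 line per age. The 3-day signals of Slc2a4 lie between 165.7 and 249.7, under all 3 no fracture signals, and the dotted line in the Plin1 panel marks the floor of 20.

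Slc2a4 encodes GLUT4, the glucose transporter that insulin brings to the surface of fat and muscle cells. It showed the deepest fall of the 10 genes. Its signals at 3 days in young, adult and older rats were 178.9, 249.7 and 165.7, against 829.9, 1237 and 1992 with no fracture. The groups do not overlap, and the 3-day signals were 21.6%, 20.2% and 8.32% of the intact level of the same age. The fitted change was -2.70 ± 0.27 (SE, adjusted p = 3.45e-05). Recovery was gradual, with mean signals of 449.9 ± 61.2 at 1 week, 669.7 ± 143 at 2 weeks, 752.3 ± 79.1 at 4 weeks and 1011 ± 187 at 6 weeks (SD, n = 3 each). Slc2a4 was still called lower at 1 week (-1.51, adjusted p = 0.00161) and 2 weeks (-0.94, adjusted p = 0.0199). At 4 weeks all 3 arrays were below the 3 intact ones, but the change of -0.76 was not called (adjusted p = 0.066). Its dimmer probe set was called lower at 3 days as well (-1.74, adjusted p = 0.000644), but not at 1 week (-0.51, adjusted p = 0.181) or 2 weeks (-0.59, adjusted p = 0.132).

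By the brightest Slc2a4 probe set, older rats ended furthest from their own start. At 6 weeks their signal of 1202 was 60.4% of the intact 1992, the adult signal of 829.6 was 67% of 1237 and the young signal of 1002 was 121% of 829.9. The dimmer probe set read 122.1, 139.6 and 181.6 at 6 weeks in young, adult and older rats. Its intact signals were 136.6, 195.4 and 224.5, so there the adult rats ended furthest. Each of these signals is 1 array, and the change of the older-young gap after fracture was not called for this gene (-1.21, adjusted p = 0.154).

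Lipe encodes hormone-sensitive lipase, which cleaves stored triglyceride, and its brightest probe set was called lower at 4 of the 5 times. At 3 days it read 564.2, 603 and 593 in young, adult and older rats, against 1353, 1500.3 and 1880 with no fracture. The groups do not overlap, and the 3 ages lay close together at 3 days, with 587 ± 20.1, against 1578 ± 272 with no fracture (SD, n = 3 each). The fitted change was -1.41 ± 0.16 (SE, adjusted p = 6.62e-05). It was -0.98 at 1 week (adjusted p = 0.000867), -1.09 at 2 weeks (adjusted p = 0.000598) and -0.55 at 4 weeks (adjusted p = 0.0295), and all 3 fractured arrays were below all 3 intact ones at each of these times. At 6 weeks the signals of 1278, 885.7 and 1540 overlapped the intact ones and the change of -0.38 was not called (adjusted p = 0.132). The dimmer Lipe probe set was called lower at 3 days (-0.91, adjusted p = 0.00628) but not at 1 week (-0.31, adjusted p = 0.286) or 2 weeks (-0.36, adjusted p = 0.223), and at 4 weeks it gave a change of 0.011.

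Cfd encodes adipsin (complement factor D), a serine protease secreted in large amounts by fat cells. Its signals at 3 days were 655.2, 715.9 and 793.4 in young, adult and older rats, against 1843, 2424 and 3251 with no fracture. These groups do not overlap, and the change was -1.76 ± 0.41 (SE, adjusted p = 0.00632). At 1 week the ages parted: the young signal was 1847, or 100.2% of its intact value, while the adult signal of 623.2 was 25.7% and the older signal of 560.1 was 17.2% of theirs. The change was still called at 1 week (-1.50, adjusted p = 0.0164) and, narrowly, at 2 weeks (-1.19, adjusted p = 0.0471). At 4 weeks Cfd averaged 2342 ± 151, against 2506 ± 708 with no fracture (SD, n = 3 each), and at 6 weeks 2792 ± 1193. The highest Cfd signal of the 18 arrays was 4058, in older rats at 6 weeks.

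Fabp4 encodes the carrier of fatty acids in the adipocyte cytoplasm (aP2). It read 511.3, 634.7 and 1056 at 3 days in young, adult and older rats, against 820, 1509 and 1588 with no fracture. Each age was lower than its own intact array, although the older 3-day array lay above the young intact one. The change was -0.84 ± 0.28 (SE, adjusted p = 0.0322). At 1 and 2 weeks the changes of -0.46 and -0.66 were not called (adjusted p = 0.219 and 0.0918). At 6 weeks the signals were 1339, 1976 and 3228, which is 163%, 131% and 203% of the intact level, with a change of 0.71 that was not called (adjusted p = 0.112).

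Of these 4 calls at 3 days, those of Lipe and Slc2a4 remained whichever age was left out. The call of Cfd was lost without the adult rats (adjusted p = 0.0929) and without the older rats (adjusted p = 0.0542), and that of Fabp4 without the young (adjusted p = 0.101) and without the adult rats (adjusted p = 0.325). At 1 week and 2 weeks Cfd was called without the young rats only, and at 2 weeks Slc2a4 was not called without any of the 3 ages, while Lipe was called in all 6 of these fits.

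Lpl encodes lipoprotein lipase, which frees fatty acids from circulating lipoproteins at the vessel wall. Its brightest probe set read 831.5, 815.6 and 1161 at 3 days in young, adult and older rats, against 1624, 694.3 and 2694 with no fracture. The adult intact array is the lowest of all 18, and with it the groups overlap and the change of -0.65 was not called (adjusted p = 0.174). The other 2 Lpl probe sets read the adult intact sample at 1218 and 1050.1, and both were called lower at 3 days (-1.95, adjusted p = 0.000928, and -0.96, adjusted p = 0.00533). By 6 weeks the brightest probe set read 2414, 2738 and 3942, at 149%, 394% and 146% of the intact signal. That change of 1.03 was not called (adjusted p = 0.0737), while one of the dimmer probe sets was called higher at 4 weeks (0.70, adjusted p = 0.0446) and 6 weeks (0.76, adjusted p = 0.0389).

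Cd36 encodes a fatty acid transporter of the cell surface. Its signals were low throughout, at 60.8, 110.8 and 167 at 3 days in young, adult and older rats, against 95.4, 168.3 and 184.8 with no fracture. All 3 ages were lower than their intact array, but the groups overlap and the change of -0.47 was not called (adjusted p = 0.15). By its brighter probe set the young array of Cd36 was the lowest of the 3 ages at all 6 times. No age difference of Cd36 was called in this fit (values below). The dimmer probe set did not keep that order at 4 weeks, with 198.8, 214.5 and 171 in young, adult and older rats.

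Scd encodes stearoyl-CoA desaturase, which puts the double bond into the fatty acids of stored fat. It had the widest range of the 10 genes. At 3 days it read 240, 312 and 467.4 in young, adult and older rats, against 270.7, 769.4 and 2289 with no fracture, a change of -1.26 that was not called (adjusted p = 0.0741). The course after that was uneven, with means of 1306 ± 548 at 1 week, 686.3 ± 395 at 2 weeks, 2353 ± 912 at 4 weeks and 2537 ± 1929 at 6 weeks (SD, n = 3 each). In young rats the 4-week and 6-week signals of 1359 and 1887 were 502% and 697% of the intact one, and in older rats the corresponding 3150.1 and 4707 were 138% and 206%. The changes of 1.51 at 4 weeks and 1.41 at 6 weeks were not called (adjusted p = 0.0593 and 0.0883). A second Scd probe set was under 20 on 9 of the 18 arrays and was called higher at 1 week only (1.33, adjusted p = 0.0236).

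Plin1 encodes perilipin 1, the coat protein of the adipocyte lipid droplet, and its expression is largely restricted to fat. Its probe set was dim, with 20.8, 40.2 and 53.4 in young, adult and older intact femora. All 9 arrays of 3 days, 1 week and 2 weeks lay below the floor, between 6.5 and 13.3, and below all 3 intact arrays. At 4 weeks it read 20.2, 59.4 and 40.9. Since the early values are at the floor, the fitted change of -0.83 is set by the floor and was not called (adjusted p = 0.0515 at 3 days, 0.0552 at 1 week and 0.0588 at 2 weeks). Plin1 was called lower at these 3 times without the young rats and with log2(signal + 50) in place of the floor.

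Pparg encodes the master regulator of adipocyte differentiation. It read 80, 104.9 and 117 at 3 days in young, adult and older rats, against 53.1, 148.6 and 175.6 with no fracture. The young rats thus stood at 151% of their intact level while the adult and older rats stood at 70.6% and 66.6%. Over the 3 ages the change was -0.17 (adjusted p = 0.798), and at 6 weeks, with signals of 172.5, 181.1 and 226.6, it was 0.78 (adjusted p = 0.189). Pparg was not called at any time.

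Lep encodes leptin, the hormone by which fat signals energy stores to the brain. Its brightest probe set read 2093, 2164 and 2242 at 3 days in young, adult and older rats, against 2961, 3370 and 2448 with no fracture, with no overlap but without a call (-0.42, adjusted p = 0.118). It was called at 4 weeks (-0.67, adjusted p = 0.0367), where the adult array stood at 1343, the lowest of all 18, and at 6 weeks the signals were 70% to 74.2% of the intact ones of the same age (-0.48, adjusted p = 0.135). The other 2 Lep probe sets were far dimmer, between 21.8 and 241.3. One of them was called lower at 3 days (-0.95, adjusted p = 0.0179), 1 week (-1.28, adjusted p = 0.00446) and 2 weeks (-0.96, adjusted p = 0.0209), and not at 4 weeks. The probe sets named for Lep therefore disagree on when the signal was lowest, and which of them reads leptin mRNA could not be settled here, so each call and count of Lep is that of the brightest probe set.

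**Figure D2:**
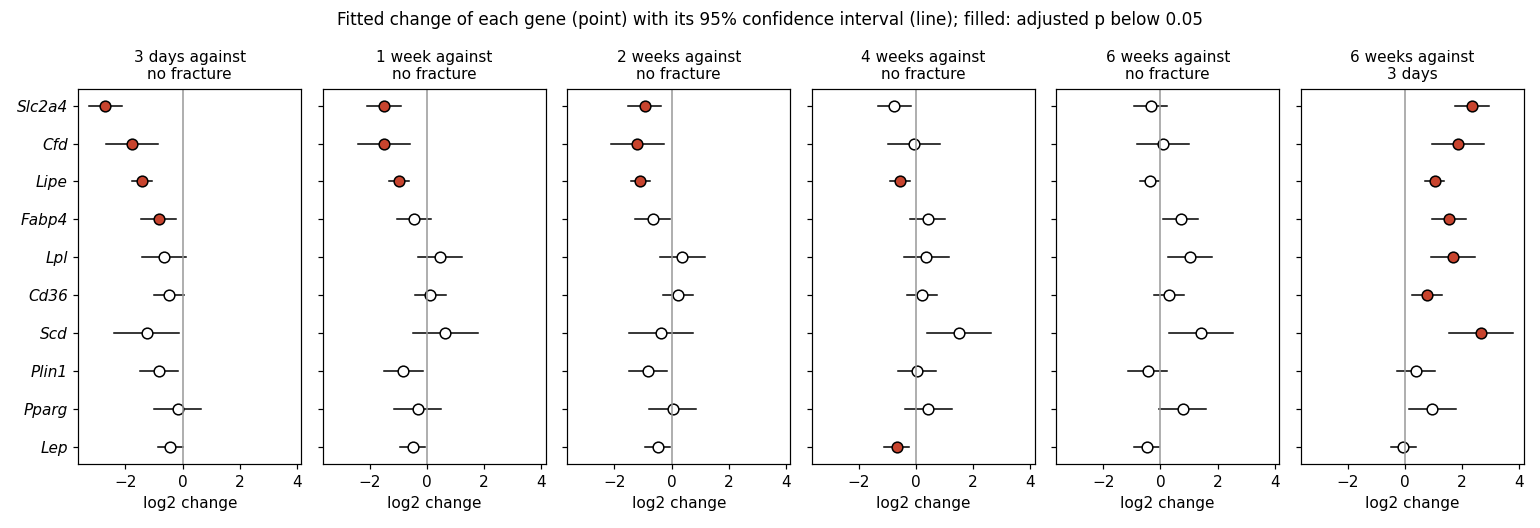
Fitted log2 change of each gene (horizontal axis) in 6 comparisons, with the 95% confidence interval as a line and filled points where the adjusted p is below 0.05. Filled points number 4, 3, 3, 2 and 0 from 3 days to 6 weeks against no fracture, all on the lower side, and 7 at 6 weeks against 3 days, all on the higher side.

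Counts that do not rest on the fit gave a similar course. All 3 fractured arrays lay below all 3 intact arrays in 5 of 10 genes at 3 days (Cfd, Lep, Lipe, Plin1 and Slc2a4), 4 at 1 week, 4 at 2 weeks, 3 at 4 weeks and 0 at 6 weeks. The same held for 23.6%, 24.9%, 22.2%, 15.4% and 12.8% of all probe sets at these times. At 3 days 8 of the 10 genes were lower than intact at each of the 3 ages, the exceptions being Lpl and Pparg, against 32.4% of all probe sets. One of the 8 is Plin1, which in young rats stood at 96.2% of intact because of the floor. At 6 weeks 5 of the 10 were above the intact array at each age (Cd36, Fabp4, Lpl, Pparg and Scd), against 17.3% of all probe sets.

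Between 3 days and 6 weeks 7 of the 10 genes rose, against 10% of all probe sets called higher. Scd rose 6.37-fold (2.67 ± 0.51 log2, SE, adjusted p = 0.00481), Slc2a4 5.13-fold (2.36 ± 0.27, adjusted p = 0.000224), Cfd 3.64-fold (1.87 ± 0.41, adjusted p = 0.0101), Lpl 3.21-fold (1.68 ± 0.35, adjusted p = 0.00791) and Fabp4 2.92-fold (1.55 ± 0.28, adjusted p = 0.0032). Lipe rose 2.05-fold (adjusted p = 0.00123) and Cd36 1.71-fold (adjusted p = 0.0438). Plin1, Pparg and Lep gave 0.38, 0.95 and -0.06 and were not called. The median of the 10 was 1.29, against 0 over all probe sets. With 1 age left out the count was 3 or 4, while the share of all probe sets called in either direction was 5.05% to 11.4%, against 20.2% with all ages, and Lipe and Slc2a4 were called in each of these 3 fits. Lpl was called in none of them, Cfd without the young rats only, Scd without the adult only, Cd36 without the older only, and Fabp4 without the young and without the older rats. With the actin ratio as a covariate 3 calls remained (Fabp4, Lipe and Slc2a4), and the call of Cd36 was also lost under quantile normalization, median centring, a floor of 100 and log2(signal + 50). The dim second Scd probe set gave -0.024 for this comparison, without a call.

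Step by step, few of these rises could be placed. From 3 days to 1 week Slc2a4 rose (2.29-fold, adjusted p = 0.0337). It was the only one of the 10 genes called by the brightest probe sets, against 2.12% of all probe sets called higher. The dimmer Slc2a4 probe set was called as well (1.23, adjusted p = 0.0369), and so was a dimmer one of Lpl (1.01, adjusted p = 0.0302). From 1 to 2 weeks, from 2 to 4 weeks and from 4 to 6 weeks 0 of the 10 were called, against 0.103%, 1.6% and 0.0915% of all probe sets in either direction. The steps from 2 to 4 weeks that came nearest were Fabp4 (1.06, adjusted p = 0.0891) and Scd (1.88, adjusted p = 0.104). A difference in timing between the genes was not tested.

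Relatives of 4 of these genes, which are expressed in many cell types, were called higher at 3 days, when Slc2a4 and Fabp4 were called lower and Scd and Plin1 were not called. At 4 and 6 weeks Scd (1.51 and 1.41) and Fabp4 (0.41 and 0.71) had changes of the same sign as Scd2 and Fabp5, without a call. Scd2, the desaturase found widely outside fat, read 3468, 3875 and 4011 at 3 days in young, adult and older rats, against 823.1, 398.4 and 302.4 with no fracture. Its brightest probe set was called higher at all 5 times, by 3.03, 2.42, 2.21, 1.98 and 1.52 (log2), with adjusted p between 3.31e-05 and 0.00821. Its dimmer probe sets differ. One read 248.6, 262.4 and 254.8 at 3 days and 174.3, 170.1 and 163.5 at 4 weeks, against 241.6, 231.3 and 203.9 with no fracture. Another rose at 3 days but read 108.7, 146 and 73.5 at 4 weeks, against 115.3, 101.3 and 86.5 with no fracture. Others also rose at 3 days at each age, and one was under 20 on all 18 arrays. Fabp5, the epidermal fatty acid carrier, read 3508, 4862 and 3799 at 3 days, against 591.8, 503.1 and 663.4 with no fracture. It too was called higher at all 5 times, by 2.79, 1.82, 1.65, 0.98 and 1.34. Plin2, which coats droplets in most cells, rose at 3 days (1.72), 1 week (1.19), 2 weeks (0.75) and 6 weeks (0.75). Slc2a1 (GLUT1, the basal glucose transporter) was added to the comparison after its values had been seen. It read 1304, 949.3 and 855.2 at 3 days, against 235.8, 214.3 and 277.7 with no fracture, and was called higher through 4 weeks (2.08, 1.71, 1.51 and 1.19). By the brightest probe sets, none of the 3-day arrays of these 4 genes overlapped the intact arrays. Slc2a4 fell 6.51-fold and Fabp4 1.79-fold on the same arrays.

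**Figure D3:**
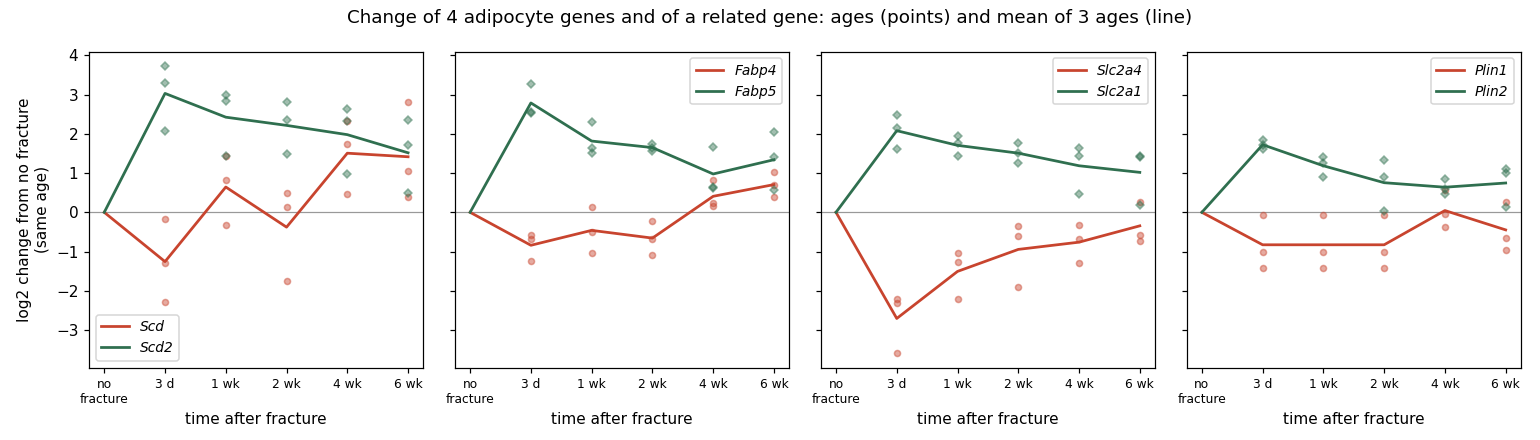
Log2 change from the no fracture array of the same age against time, for Scd and Scd2, Fabp4 and Fabp5, Slc2a4 and Slc2a1, and Plin1 and Plin2 (points, 1 age each, and line, mean of 3 ages). At 3 days every point of Scd2, Fabp5, Slc2a1 and Plin2 lies above 0 and every point of Scd, Fabp4, Slc2a4 and Plin1 below it, and Plin1 values under a signal of 20 are drawn at 20.

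For 3 further lists of fat cell genes (transcription factors, lipid synthesis, and lipolysis with insulin response) the calls were counted, of which 13 of 15, 14 of 20 and 14 of 24 genes were measured. Among all probe sets the shares called higher were 18.9%, 18%, 16.1%, 11.5% and 8.34% from 3 days to 6 weeks. Of the transcription factors, Cebpb and Cebpd, which act early in adipocyte differentiation, rose at 3 days (0.49 and 0.64) and at 1 week (0.58 and 0.64). The 2 dimmer Cebpd probe sets disagree at 3 days in young, adult and older rats. One read 272.3, 304.3 and 303.7, against 414.4, 612.5 and 304.5 with no fracture. The other read 315.1, 356.9 and 335.9, against 20.9, 30.4 and 26.5 with no fracture. Rxra, the dimer partner of the Pparg receptor, rose at 3 days, 1 week and 2 weeks (1.24, 1.55 and 1.61), and its relative Rxrg fell at 3 days (-1.66). Srebf1, a regulator of lipid synthesis, rose at 1 and 2 weeks (1.42 at both). In this list 3, 4, 2, 0 and 0 genes were called higher from 3 days to 6 weeks and 2, 0, 1, 0 and 0 lower.

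In the list of fatty acid and triglyceride synthesis 5, 4, 4, 3 and 1 genes were called higher and 1, 4, 3, 0 and 1 lower. Acsl1, the acyl-CoA synthetase abundant in fat and muscle, fell at 3 days (-2.17, adjusted p = 4.71e-05), 1 week (-1.68) and 2 weeks (-1.34). Its signals were 233.6, 263.4 and 268.4 at 3 days, against 883.7, 1292 and 1321 with no fracture. Slc25a1, the mitochondrial citrate carrier, rose at 3 days (1.51) and 2 weeks (1.45). Acsl3 and Acsl4, which are used more broadly, rose at 3 days (1.22 and 0.87). Gpd1, which makes the glycerol backbone of triglyceride, rose at 2 and 4 weeks (1.34 and 1.35). Fasn, fatty acid synthase, fell at 1 week by its brighter probe set (-0.78, adjusted p = 0.0272). Its dimmer probe set read 311.7, 356.1 and 374.5 at 1 week, against 399.6, 418.4 and 224.3 with no fracture, so the older array was higher there.

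In the list of lipolysis and insulin response 5, 4, 4, 1 and 2 genes were called higher and 3, 2, 1, 0 and 0 lower. Adrb3, the β3-adrenergic receptor through which fat cells receive the signal to release fatty acids, fell at 3 days (-0.86, adjusted p = 0.000761) and 1 week (-0.58). Pde3b, the phosphodiesterase by which insulin restrains that release, fell at 3 days and 2 weeks (-0.95 and -1.13), and Irs2, an insulin receptor substrate, at 3 days and 1 week (-1.05 and -0.92). The genes of the 3 lists called higher also include Plin2, Fabp5, Cav1 and Akt2, which are not confined to fat, and Acly at 3 days. Those called lower also include Nr1h3 at 3 days and 2 weeks, and Me1 and Dgat1 at 1 and 2 weeks. Whether genes confined to fat moved differently from the others was not tested. Adiponectin, resistin and perilipin 4 were not analysed here.

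Markers of other cells moved on the same arrays. Of 10 measured skeletal muscle genes (such as Acta1, Ckm and Myh2) all 10 were called lower at 3 days, 5 at 1 week, 1 at 2 weeks and 0 at 4 and 6 weeks. Their summed signal was 27625 to 38452 at 3 days, against 105049 to 121697 with no fracture, and their median change was -2.45, a value between those of Slc2a4 and Cfd. Slc2a4, Lipe, Lpl and Cd36 are also expressed in muscle, and the part of muscle in their fall was not tested. At 2 weeks 1 of the 10 muscle genes was called lower, and their median change was -0.22. The brightest probe sets of Cfd, Lipe and Slc2a4 were called lower at that time, and the dimmer ones of Lipe and Slc2a4 were not. Of 4 red cell markers (Alas2, Hbb, Slc4a1 and Epor) all 4 were lower at 3 days, 1 week and 2 weeks and 1 at 4 and 6 weeks. Of 5 measured macrophage markers Cd14 and Lgals3 were called higher at every time, Csf1r at 2 weeks and C1qb at 4 weeks, while Fcgr2b was called lower at 1 and 2 weeks (-0.84 and -0.98), and their part in the level of Lpl, Cd36 and Fabp4 was not tested. Of 4 endothelial markers Pecam1 was called higher through 4 weeks and Vwf was called lower at 2 and 4 weeks (-0.86 and -1.09). The summed signal of the 10 adipocyte genes was 9871 to 16556 with no fracture and then 5221 to 6776 at 3 days, 8382 to 9544 at 1 week, 7224 to 9079 at 2 weeks, 11300.4 to 13385 at 4 weeks and 12057 to 20833 at 6 weeks. The brown fat marker Ucp1 read 19.9 to 104 over all arrays and was not called at any time.

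**Figure D4:**
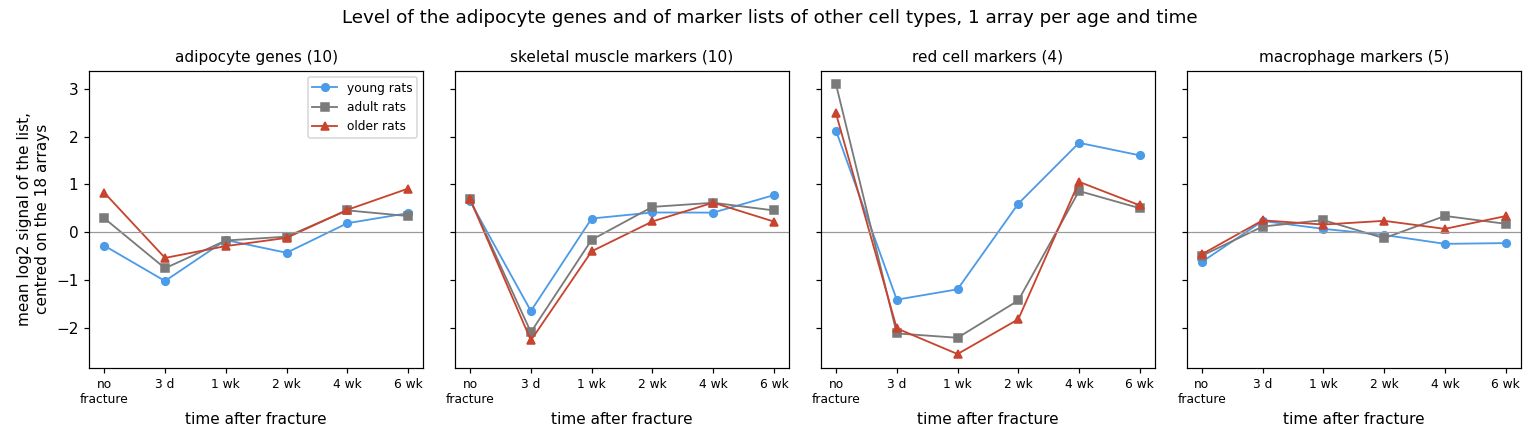
Mean log2 signal of the 10 adipocyte genes and of markers of skeletal muscle, red cells and macrophages, each gene centred on its mean over the 18 arrays, against time with 1 line per age. At 2 weeks the muscle lines are at 0.22 to 0.53, against 0.65 to 0.69 with no fracture. The adipocyte lines are at -0.43 to -0.09, against -0.28 to 0.83 with no fracture.

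Across the ages the adipocyte genes showed their most regular order before fracture. In intact femora 9 of the 10 genes read higher in older than in young rats, against 37.6% of all probe sets. By the brightest probe sets 8 of the 10 increased in order over young, adult and older rats, against 9.67%. Of these 8, Slc2a4 kept that order by its dimmer probe set (136.6, 195.4 and 224.5). The dimmer ones of Lipe (239, 307.8 and 282.2) and Cd36 (37.4, 265.9 and 168) did not, though older rats were above young ones in both. The dimmer Scd probe set was under 20 at all 3 ages. The older signal was 8.45 times the young one for Scd (2289 and 270.7), 3.31 times for Pparg (175.6 and 53.1), 2.57 times for Plin1 and 2.40 times for Slc2a4. It was 1.94 times for Cd36 and Fabp4, 1.76 times for Cfd, 1.66 times for Lpl and 1.39 times for Lipe, and for Lep it was 0.827 of the young signal. Each of these compares 1 array with 1 array and carries no test. The older signal was above the young one in 8 of the 10 genes at 3 days, 3 at 1 week, 5 at 2 weeks and 7 at 4 weeks (all probe sets 49.2%, 42.8%, 39.2% and 36.5%). At 6 weeks it was 9 of the 10 again, with 4707 and 1887 for Scd, 3228 and 1339 for Fabp4 and 4058 and 2632 for Cfd in older and young rats, against 41.8% of all probe sets.

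Over all 6 times none of the 10 genes was called between older and young rats, against 0.446% of all probe sets. Cd36 was higher in older rats at 6 of 6 times (0.79 ± 0.17, SE, adjusted p = 0.0818), Scd at 6 of 6 (1.51 ± 0.36, adjusted p = 0.109) and Fabp4 at 5 of 6 (0.79 ± 0.20, adjusted p = 0.111). The confidence intervals of these differences were 0.42 to 1.16, 0.72 to 2.31 and 0.36 to 1.22. Between adult and young rats 0 of the 10 were called as well, against 0.0801% of all probe sets, and Cd36 and Fabp4 were higher in adult rats at 6 of 6 times (0.75, adjusted p = 0.189, and 0.46, adjusted p = 0.482).

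Whether the older-young gap changed with fracture was asked by a fit that sets the gap on the 5 fractured times against the gap with no fracture. The change of the gap was negative in 9 of the 10 genes, and 0 of the 10 were called, against 3.2% of all probe sets. Pparg gave the lowest p among the 10 (-1.77 ± 0.45, SE, adjusted p = 0.082), followed by Slc2a4 (-1.21, adjusted p = 0.154). Scd gave -1.88 (adjusted p = 0.384) with an interval of -3.86 to 0.10. Because the gap before fracture rests on 1 array per age, each of these values depends on the intact arrays of young and older rats, and so all 10 share the same 2 arrays. In the relatives the test was passed by Scd2, with a change of the other sign (1.58, adjusted p = 0.0162).

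Genes with the most similar course were looked for among 3098 genes with a mean signal of 100 or more, by Pearson's r of log2 signal over the 18 arrays, as a description without a test. For Slc2a4 they were Ppp1r1a (0.97), Pygm (0.96), the muscle glycogen phosphorylase, and Tcap (0.95), a protein of the muscle sarcomere. For Cfd they were Vcam1 (0.93), Acsl1 (0.92) and Cma1 (0.91), a mast cell protease. Lipe was nearest to Acsl1 (0.92), Mfn2 (0.91) and Tspan8 (0.89), so Acsl1 stood near both Cfd and Lipe. Scd was nearest to Ghr (0.86), Sncg (0.83) and Cpt1b (0.82), and Fabp4 to Hsd17b10 (0.78), Scd (0.78) and Sncg (0.77). Pparg was nearest to Aldh6a1 (0.80), Sncg (0.76) and Fasn (0.74), so that Sncg, γ-synuclein, appears beside Scd, Fabp4 and Pparg. For Lpl the nearest genes were Ccng1 (0.81), Nmrk2 (0.78) and Ampd1 (0.78), and for Cd36 Ace (0.79), Phka1 (0.77) and S100b (0.71). Lep was nearest to Slc23a3 (0.84), Oaz1 (0.80) and Hnrnpa2b1 (0.79), and Plin1 to Rab28 (0.75), Fmc1 (0.75) and Kcnj11 (0.72). All these values share the same 18 arrays and a scaling to a common mean.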

How the data were processed

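The 18 Affymetrix rat arrays were deposited as signal intensity. The authors computed these intensities with Affymetrix Microarray Suite 5.0 from perfect match and mismatch probes and scaled each array to 500; the 2% trimmed means were checked at 500.7 to 500.8. Such scaling makes each value relative to the other transcripts of its array. Of 8799 probe sets, 59 controls were left out. The platform annotation gave 1 symbol to 7006 probe sets, several to 308 and none to 1426. Detection calls were not used here. Arrays have no sequencing depth, and their number limits the precision.

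Values under 20 were set to 20 before log2. The model, run in limma 3.58.1 (R 4.3.3), held time and age as additive factors (10 residual degrees of freedom), with empirical Bayes moderation and a trend, and the gap between ages in a fit with age by fracture (8 residual degrees of freedom). Adjusted p values are Benjamini-Hochberg values over 8740 probe sets, called below 0.05. Each array pools 2 rats, with no further replicate. The p-values therefore rest on a spread that mixes differences between the ages in their course over time with spread between samples. The latter may in part be technical. Group values are mean ± SD before the floor. All 10 members are named, with the 3 genes most like each by Pearson's r and up to 6 genes of each companion list. Pck1, Aqp7 and further genes of these lists were named for their role or their call after their values had been seen. The members and lists were chosen with earlier results of these data known. The fits were tested on simulated data. Alternatives were a floor of 100, log2(signal + 50), median centring, quantile normalization, a mean signal of 200 or more, no trend, the actin ratio as covariate, each age or time left out, only the arrays of 2 times, the other probe sets and a t-test.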

Additional observations from a re-analysis of the deposited data

How the results depend on the processing

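With 1 age left out, the members called lower or higher numbered 2 to 4 at 3 days, 2 to 5 at 1 week, 1 to 3 at 2 weeks, 0 at 4 weeks, 0 to 1 at 6 weeks and 3 to 4 at 6 weeks against 3 days. Leaving out the adult rats gave 2 at 3 days and 1 at 2 weeks, and leaving out the young gave 5 at 1 week and 1 (Plin1) at 6 weeks. The calls over all probe sets were 39.3%, 35.8%, 32.8%, 21.2% and 15.4% from 3 days to 6 weeks with all ages. They fell to 19.9%, 12%, 10.2%, 0.423% and 0.652% without the adult rats. Without the older rats they fell to 21.1%, 13.6%, 10.1%, 1.27% and 0.526%. Without the young rats they were 31.8%, 30.7%, 28.1%, 23% and 18.7%, so at 4 and 6 weeks they were above those with all ages. Fits to the arrays of the 2 times alone called 2 members at 3 days and 0 at 1, 2 and 4 weeks and at 6 weeks against 3 days, where 10.3%, 4.07%, 0, 0 and 0.0686% of all probe sets were called. A t-test, which the methods name with other thresholds, called 1 member at 3 days at a threshold of 0.005 (that of their comparison between single arrays) and also after Benjamini-Hochberg adjustment (Lipe), and 0 at 1, 2 and 4 weeks by both, with 11.7%, 12.3%, 9.81% and 4.22% of all probe sets called at 0.005 and 14.2%, 15.4%, 9.51% and 0.0343% after adjustment. With the actin ratio as a covariate the counts were 1 at 1 week, 1 at 2 weeks, 0 at 4 weeks and 3 at 6 weeks against 3 days, with 11.7%, 7.77%, 2.06% and 5.79% of all probe sets. With log2(signal + 50) 6 members were called at 3 days, with Plin1 and Scd added, and 4 at 1 and 2 weeks, with Plin1 added. Taking log2(signal + 50) and keeping mean signals of 200 or more each gave 4 members at 4 weeks (Scd higher, Lep, Lipe and Slc2a4 lower) and 2 at 6 weeks (Lpl and Scd). For older against young rats, median centring called 2 (Cd36 and Fabp4), log2(signal + 50) 1 (Scd) and the filter at 200 2 (Fabp4 and Scd). Quantile normalization called 1 member (Pparg) for the change of the gap. Counting a member by any of its probe sets, chosen after seeing the data, gave 5 at 1 week and 1 at 6 weeks. By its dimmer probe set Lipe changed by 0.011 at 4 weeks, and Scd by -0.024 from 3 days to 6 weeks. Median centring raised the share of calls that were higher to 68.8%, against 46.2%, for older against young rats and lowered it to 52.6%, against 67.5%, for the change of the gap, whose median over all probe sets it moved to -0.19. The causes were not tested, and fits that left out an age or a time also had fewer arrays. Every comparison of times holds age as a factor. No paired analysis was possible because, beyond age, all 18 titles carry the same label, Series 2.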

Other observations

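Pck1, the enzyme that makes glycerol phosphate from small precursors in fat cells, was near or below the floor on most arrays. At 6 weeks in young, adult and older rats it read 130.1, 22.9 and 188.8, against 17.5, 47.9 and 38.8 with no fracture, and it was not called (adjusted p = 0.176). Aqp7, the glycerol channel of adipocytes, read 316.6, 178.8 and 391.8 at 6 weeks in young, adult and older rats, against 168.4, 67.5 and 245.5 with no fracture, so each age was above its own intact array, and it was not called either (adjusted p = 0.0645). The adult 6-week array was also the lowest of the 3 ages at 6 weeks for Cfd, Scd, Lipe and Slc2a4, with 1687, 1017, 885.7 and 829.6. A brighter and a dimmer probe set of Cd36 differed in depth of the 3-day dip, with 14.3, 27.2 and 98.4 in young, adult and older rats on the dimmer one, against 37.4, 265.9 and 168 with no fracture.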
